A study of Danio rerio with 3 samples.

Results

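Collagen chain genes encode the alpha chains of the collagens, and in the adult zebrafish heart data examined here they were followed across 7 deposited cell clusters and 3 days of an injury time course. The rule took every row of the expression table whose symbol begins with col, a type number, the letter a and a chain number, in either letter case. It matched 60 of 26320 rows. A pair of these, col4a3bpa with 8 UMIs and col4a3bpb with 33, encode ceramide transfer proteins named after a collagen chain they were once reported to bind, and they were left out of the sums. The remaining 58 rows were chains of 23 collagen types. A UMI (unique molecular identifier) marks 1 captured RNA molecule.

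Collagen chains wind together into helical molecules, and the chains available decide which molecule is built. Types I and V form the fibrils of connective tissue, with type V chains helping to start the fibril and limit its width. Type XII coats the fibril surface, type VI forms beaded filaments around cells, type IV builds the mesh of basement membranes, type VIII forms networks in vessel walls, and type XXIII is a transmembrane collagen. In the injured zebrafish heart collagen is laid down by fibroblasts and related cells and is later cleared as the muscle regrows.

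The 3 droplet libraries (10x Chromium) came from hearts of adult fish 5 to 12 months old, of strain AB in the labels: uninjured hearts collected before metronidazole (day 0), and hearts taken 3 and 7 days after loss of ventricular cardiomyocytes. Injured fish were kept for 48 h in 5 mM metronidazole with 0.1% DMSO, a drug that kills cells carrying a bacterial nitroreductase. The protocol lists a line in which the vmhc promoter drives nitroreductase with mCherry, among several lines, and does not say which was used here, and the day 0 fish had not met the drug, so what it does by itself cannot be told apart from the injury. A vehicle control of 0.1% DMSO is also named, without saying whether the day 0 fish received it. Each library pooled 6 hearts, 3 male and 3 female, digested in sets of 3, so no value has a replicate: levels are given with exact 95% intervals that cover counting error only, and no test between days or clusters was possible.

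The files held 272, 114 and 368 cells at day 0, 3 and 7, with 857410, 493660 and 1355246 UMIs and medians of 2677, 3260.5 and 3124.5 UMIs per cell. The labels state 141 recovered cells at day 3. A single barcode was shared between libraries. The deposited clusters carried numbers without names. Cluster 1 was mural-like (rgs5a and myh11a among its 10 leading genes), cluster 4 fibroblast-like (postnb and fn1b), cluster 5 cardiomyocyte-like, and clusters 2 and 6 endothelial-like. Names for clusters 2 and 4 rest on few leading markers: cluster 2 led with flt1 and ecscr, and cluster 4 also held mural marker RNA at 10813 CPM, above its 8936 CPM of fibroblast markers. Cluster 0 and cluster 3 had no marker of any class among their 10 leading genes and are called by number. They detected 20 and 19 of 21 endothelial markers, at 1828 and 1923 CPM in sum. Detection did not set them apart, since cardiomyocyte-like cluster 5 detected 18 of these markers, at 373 CPM. Their epicardial marker sums were 3498 and 3479 CPM, above their endothelial sums, in a range of 1824 to 9364 CPM across the clusters. Cluster 6 was at the top of that range, and its epicardial sum also lay above its endothelial sum of 8293 CPM. The name of cluster 6 rests on aplnra, klf2a and vwf among its 10 leading genes. Cardiomyocyte marker RNA stood at 12798 CPM in cluster 0 and 18575 in cluster 2, against 140865 in cluster 5. Clusters were made from the same expression values, so every difference between clusters is a description. Of the 10 genes leading cluster 4, 3 were collagen chains (col8a1b, col12a1a and col12a1b) and another was lox.

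At least 1 UMI was found for 27 of the 58 chain genes, in 15 types. The 31 chain genes with 0 UMIs included every listed chain of types VII, X, XIV, XV, XVII, XIX, XXI and XXVIII, and col4a3 to col4a6. Chain genes gave 6703 UMIs in all, and 642 of 754 cells held at least 1. The 15 genes with at least 30 UMIs held 6629 of these and are the ones described with values. Type I took 59.6% of all chain UMIs, type V 16.7%, type VI 7.65%, type IV 6.10%, type XII 3.77%, type XXIII 3.60% and type VIII 1.75%. The other 12 genes held 74 UMIs together.

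Levels are summed UMIs of a group of cells scaled to 1000000 UMIs (CPM), here for the 12 cluster and day groups with at least 10 cells. Summed over all chains, the library level was 899 CPM at day 0 (interval 837 to 965), 859 at day 3 (779 to 945) and 4064 at day 7 (3958 to 4173). Day 7 stood apart, and days 0 and 3 overlapped within counting error. Cluster 4 made up 14.4% of day 7 cells and held 68.1% of the day 7 chain UMIs, and without it the day 7 level was 1531 CPM. This cluster had 1 cell at day 3 and none at day 0.

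**Figure D1:**
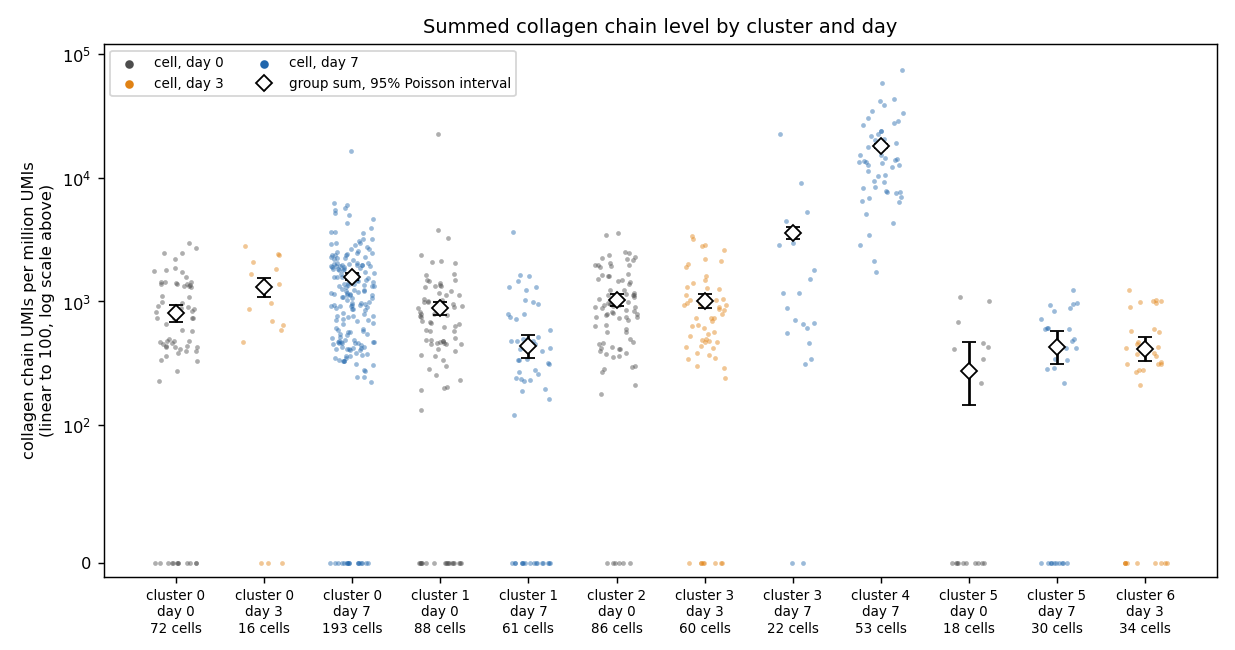
Summed collagen chain level (CPM, linear up to 100 and logarithmic above) in each cluster and day, where dots are single cells and diamonds are the group sums with 95% Poisson intervals. Cluster 4 at day 7 lies at 17942 CPM, above all other groups. The lowest group sums are those of cluster 1 at day 7, cluster 6 at day 3 and cluster 5, down to 275 CPM in cluster 5 at day 0.

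In cluster 4 at day 7 the chains reached 17942 CPM (17372 to 18525), or 1.79% of all UMIs, and all 53 cells held chain UMIs. Cluster 3 at day 7 came next with 3576 CPM, followed by cluster 0 at day 7 with 1588 and at day 3 with 1302. The middle groups were cluster 2 at day 0 (1029.7 CPM), cluster 3 at day 3 (1012), cluster 1 at day 0 (881) and cluster 0 at day 0 (805). Cluster 1 at day 7 (434), cluster 5 at day 7 (428), cluster 6 at day 3 (416) and cluster 5 at day 0 (275) were lowest, and their intervals overlapped. A cell-level view gave the same top group: the median cell of cluster 4 stood at 13310 CPM and that of cluster 0 at day 7 at 1057. At or above the lower quartile of cluster 4 (7844 CPM) lay 40 of its 53 cells, against 1 of 193 in cluster 0 at day 7, 1 of 88 in cluster 1 at day 0 and 2 of 22 in cluster 3 at day 7. Those 2 cells carried 65.6% of the chain UMIs of cluster 3 at day 7, and the rest of that group stood at 1502 CPM.

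The mixture of types differed between the clusters. Type I took 62.0% of chain UMIs in cluster 4 (60.4 to 63.6) and 63.8% in mural-like cluster 1 at day 0 (57.7 to 69.6). It took 40.1% in cluster 0 at day 0 (32.4 to 48.2) and 35.7% in cluster 2 at day 0. In cluster 1, 53 of the 169 type I UMIs lay in 1 cell without any other chain UMI. The type I share there, and its closeness to that of cluster 4, thus rest in part on this cell. Basement membrane type IV filled 21.0% of chain UMIs in cluster 0 at day 0 (14.9 to 28.2), 15.1% in cluster 2 and 18.4% in endothelial-like cluster 6 at day 3, against 2.6% in cluster 1 at day 0 and 3.1% in cluster 4. Transmembrane type XXIII accounted for 18.5% in cluster 0 and 21.3% in cluster 2 at day 0 and for 0.1% in cluster 4. Of the 253 type XII UMIs, 231 lay in cluster 4 at day 7, as did 116 of the 117 type VIII UMIs. In cluster 0 the type I share was 40.1% at day 0, 76.3% at day 3 (67.6 to 83.6) and 55.2% at day 7. The type IV share was 21.0%, 2.5% (0.5 to 7.3) and 13.4%. Day 3 shares rest on 118 chain UMIs of 16 cells, 3 of them type IV. At day 7, 1 cell held 119 of the 605 type I UMIs as col1a1a. In level, type IV stood at 169, 33.1 and 213 CPM at day 0, 3 and 7, with a day 7 to day 0 ratio of 1.26 (0.86 to 1.90).

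**Figure D2:**
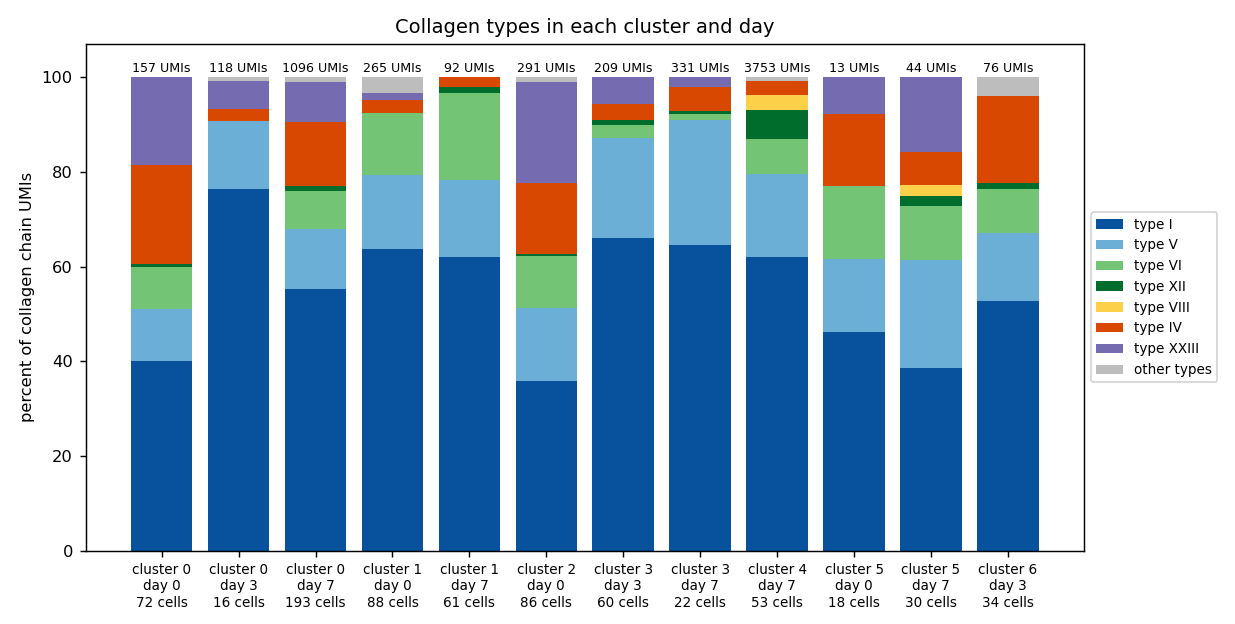
Share of collagen chain UMIs (percent, bars from 0 to 100) held by each collagen type in each cluster and day, with the number of chain UMIs above each bar. Types IV and XXIII fill large shares in clusters 0 and 2 at day 0 and small ones in clusters 1 and 4, and types XII and VIII are seen mainly in cluster 4.

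The fibril-forming type I is built in zebrafish from col1a1a and col1a1b, duplicate copies of the alpha 1 chain gene, and col1a2, the alpha 2 chain gene. Over the whole libraries, col1a1b stood at 96.8, 201 and 984 CPM at day 0, 3 and 7, col1a2 at 196, 164 and 744, and col1a1a at 138, 201 and 741. All 3 were highest at day 7, where most of their UMIs lay in cluster 4. In cluster 4, col1a1b had 4714 CPM, col1a2 3777 and col1a1a 2634, and 51 of 53 cells held all 3 chains. In cluster 0 at day 7, 27 of 193 cells held all 3 and 67 held none.

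The order of the 3 genes by share differed between groups, and single cells set part of it. Of the type I UMIs, col1a1b took 42.4% in cluster 4 (40.4 to 44.4) and col1a1a 23.7%, whereas in cluster 0 at day 7 col1a1a took 47.8% (43.7 to 51.8) and col1a1b 31.7%. A single cell of cluster 4 held 271 of its 986 col1a1b UMIs. Without the richest cell of each gene, col1a1b in cluster 4 stood at 3525 CPM, next to 3544 for col1a2 and 2499 for col1a1a, so the lead of col1a1b over col1a2 rests on this cell. A single cell of cluster 0 at day 7 carried 119 of that group's 289 col1a1a UMIs. Without it the col1a1a level there was 249.9 CPM in place of 419, next to 278 for col1a1b, so the lead of col1a1a in that group rests on this cell. In cluster 2 at day 0, where no cell had more than 10 of the 50 col1a1a UMIs, the col1a1a share was 48.1% and the col1a1b share 23.1%, with intervals that did not overlap.

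**Figure D3:**
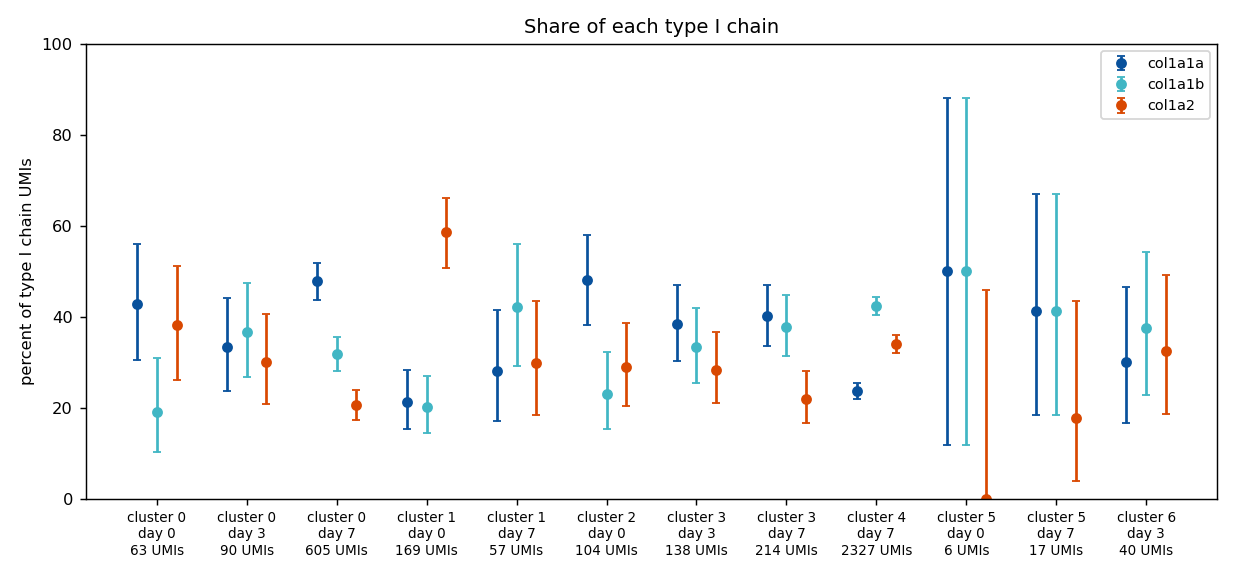
Share of each type I chain among type I UMIs (percent) in each cluster and day, points with exact binomial 95% intervals and type I UMI totals below the axis. In cluster 4 col1a1b is the largest share (42.4%), in cluster 0 at day 7 col1a1a (47.8%), and in cluster 1 at day 0 col1a2 (58.6%); single cells hold 271 of the 986, 119 of the 289 and 53 of the 99 UMIs of these genes.

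Mural-like cells at day 0 had the highest col1a2 share, 58.6% of type I UMIs (50.8 to 66.1), at 329 CPM. That value rests in part on 1 cell with 53 of the 99 col1a2 UMIs and no UMI of any other chain. Without this cell col1a2 stood at 154 CPM, next to col1a1a at 119.7 and col1a1b at 113.

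Type V was followed through col5a1, its alpha 1 chain gene, and COL5A2 (2 of 2), a copy of the alpha 2 chain gene. The row col5a2b listed 0 UMIs. In the day libraries col5a1 stood at 44.3, 85.1 and 505 CPM at day 0, 3 and 7, and COL5A2 (2 of 2) at 82.8, 66.8 and 173. Both were highest at day 7. In cluster 4, col5a1 reached 2543 CPM, of which 280 of 532 UMIs came from 1 cell, and the rest of the cluster stood at 1294 CPM. Within that cluster COL5A2 (2 of 2) was spread more evenly, at 521 CPM with 11 of 109 UMIs in its richest cell. It stood at 66.0 to 99.7 CPM in clusters 0, 1 and 2. In cluster 3 at day 7, col5a1 stood at 594 CPM with 30 of 55 UMIs in 1 cell. COL5A2 (2 of 2) stood there at 346 CPM with 19 of 32 UMIs in 1 cell. Of the UMIs of this pair, col5a1 took 17.6% in cluster 0 at day 0 (3.8 to 43.4), 56.8% in cluster 0 at day 7 (48.2 to 65.2) and 83.0% in cluster 4. A further type V gene, col5a3a, had 17 UMIs, all in cluster 4.

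The fibril-coating type XII genes lay almost wholly in cluster 4. There were 161 UMIs of col12a1a in cluster 4 (769.7 CPM), and no other group held more than 9. For its duplicate col12a1b, 70 of 74 UMIs lay in cluster 4 at day 7 (335 CPM). Here no cell dominated: the richest held 13 and 12 UMIs, and 35 and 25 of 53 cells were positive.

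Beaded filament type VI is assembled from col6a1, col6a2 and another chain, usually col6a3. In cluster 4 their levels were 196, 712 and 382 CPM, and 69 of 149 col6a2 UMIs came from 1 cell, without which col6a2 stood at 389 CPM. Elsewhere col6a1 reached at most 31.8 CPM and col6a2 at most 53.6. The chain gene col6a6, whose mammalian product can replace the alpha 3 chain, was highest in mural-like cluster 1, with 59.8 CPM at day 0 and 47.2 at day 7, against 19.1 in cluster 4 and 5.1 in cluster 0 at day 0. At day 0 it was 11.7-fold higher in cluster 1 than in cluster 0 (1.84 to 486), from 18 UMIs against 1.

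Basement membrane chains col4a1 and col4a2 are built into 1 molecule, and their genes lie next to each other in the RefSeq zebrafish annotation (assembly GRCz12tu, used here for names and neighbours). At day 0, col4a1 stood at 108 CPM in cluster 0 and 131 in cluster 2, against 16.6 in cluster 1, 6.48-fold lower than in cluster 0 (2.38 to 21.99). At day 7 it was 116 CPM in cluster 0, 129.7 in cluster 3, 172 in cluster 4 and 4.7 in cluster 1. Its partner col4a2 had 382 CPM in cluster 4, where 48 of 80 UMIs came from 1 cell and the level without it was 158, next to 97.0 in cluster 0. The col4a1 intervals of cluster 4 and cluster 0 overlapped, unlike those of col4a2 and of the fibril chains.

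Network-forming col8a1b was seen in cluster 4 with 116 UMIs and in 1 other UMI of cluster 5. Within cluster 4, 84 of the 116 UMIs lay in a single cell and 17 of 53 cells were positive. The paired genes col8a1a and col8a2 listed 0 UMIs.

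The transmembrane chain gene COL23A1 (1 of 2) was low in cluster 4 and highest in clusters 0 and 2, without being confined to these. It stood at 58.1 and 75.6 CPM in cluster 3 at day 3 and 7. In cluster 5 at day 7 it was 68.0 CPM, where 4 of 7 UMIs lay in 1 cell. At day 0 the gene stood at 149 CPM in cluster 0 and 219 in endothelial-like cluster 2, against 13.3 in mural-like cluster 1. In cluster 2, 22 of 62 UMIs lay in 1 cell and the level without that cell was 145. At day 7 it was 135 CPM in cluster 0, 9.6 in cluster 4 and listed at 0 UMIs in cluster 1, where up to 14.2 CPM would be allowed by a count of 0. Endothelial-like cluster 6 at day 3 also had 0 UMIs, which allows up to 16.4 CPM.

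**Figure D4:**
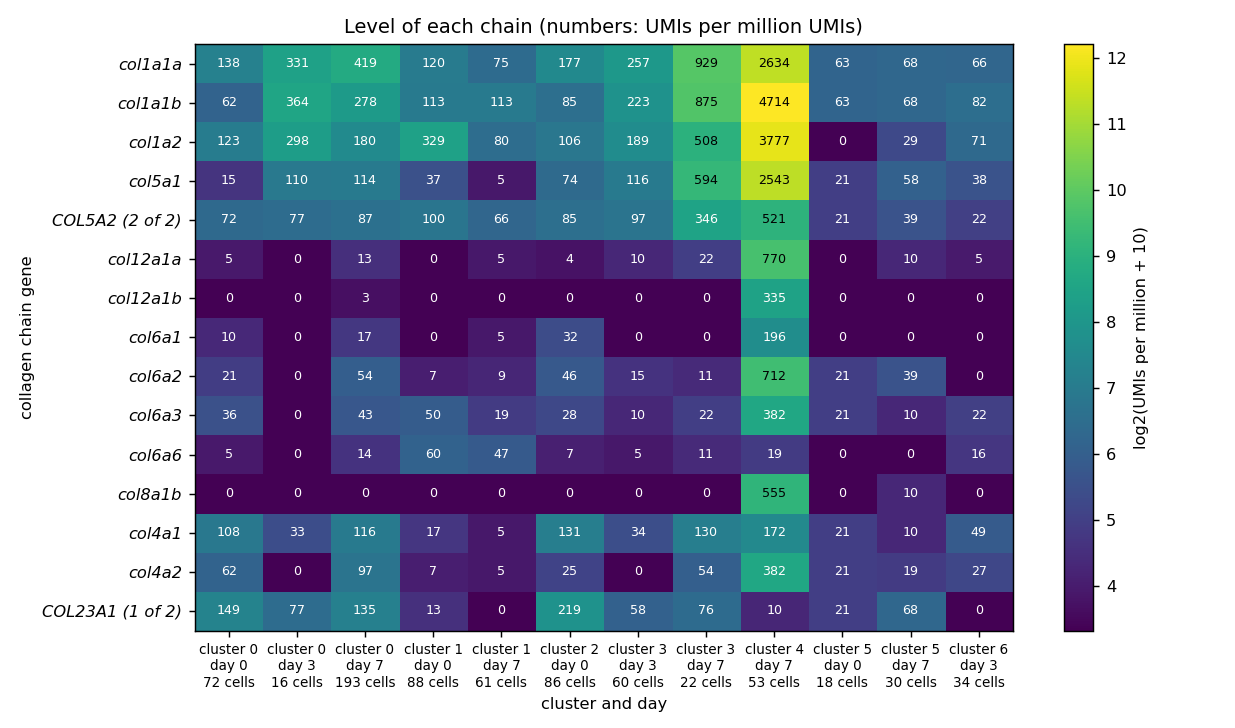
Level of the 15 chain genes with at least 30 UMIs (rows) in 12 cluster and day groups (columns), coloured by log2(CPM + 10) with the CPM printed in each cell. The fibril chains are brightest in cluster 4, col6a6 is highest in cluster 1, and COL23A1 (1 of 2) is highest in clusters 0 and 2.

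The rarely detected chains also differed by place. All 8 UMIs of col11a1a and all 7 of col11a1b, minor fibril chains, lay in cluster 4 at day 7. COL16A1 had 22 UMIs, of which 9 lay in cluster 4 and 7 in cluster 0 at day 7. The cartilage-type genes col2a1b, col9a1a and col9a3 had 5, 3 and 1 UMIs.

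Droplet libraries carry free RNA, so cells with a UMI were counted after thinning every cell to 2000 UMIs and set beside cardiomyocyte-like cluster 5. At day 7 a col1a1a UMI was found in 96.2% of cluster 4 cells (87.0 to 99.5), 29.5% of cluster 0 (23.2 to 36.5), 19.7% of cluster 1 and 13.3% of cluster 5 (3.8 to 30.7); before thinning these were 98.1%, 39.4%, 19.7% and 23.3%. Median depths were 3436, 2976, 2770 and 3288 UMIs per cell. The intervals of cluster 0 and of cluster 1 (10.6 to 31.8) both overlap that of cluster 5, and of these 4 only that of cluster 4 lies above it. In level, col1a1a at day 7 was 419 CPM in cluster 0 (372 to 470), or 249.9 without its richest cell. It was 75.5 CPM in cluster 1 (43.1 to 123) and 68.0 in cluster 5 (27.3 to 140). How much of any value is free RNA was not tested. For COL23A1 (1 of 2) the thinned share was 29.2% in cluster 0 (19.0 to 41.1) and 23.3% in cluster 2 (14.8 to 33.6) at day 0, against 1.1% in cluster 1 and 5.6% in cluster 5 (0.1 to 27.3), so both also overlap the share in the 18 cells of cluster 5. Per 100 col1a1a UMIs at day 7 there were 29.2 col12a1a UMIs in cluster 4 (24.4 to 34.9) and 3.11 in cluster 0 (1.41 to 5.99). For col4a1 there were 6.53 in cluster 4 and 27.7 in cluster 0. Of these genes, col12a1a is among the leading genes of cluster 4, and the part of free RNA in these values was not tested. In cluster 0, 119 of the 289 col1a1a UMIs lay in 1 cell, which lowers both of its values.

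Between days, cluster 0 was compared at day 0 and day 7. Its summed chain level was 805 CPM at day 0 and 1588 at day 7, 1.97-fold higher (1.67 to 2.35), and 1302 CPM at day 3 from 16 cells. By chain, col1a1a was 138 CPM at day 0 and 419 at day 7, 3.02-fold higher (2.04 to 4.67), with 249.9 CPM at day 7 without its richest cell. Level of col1a1b was 61.5 and 278 CPM, 4.52-fold higher (2.53 to 8.90), and col5a1 was 15.4 and 114 CPM, 7.44-fold higher (2.45 to 36.8) from 3 UMIs at day 0. These 3 chains had day 7 intervals above their day 0 intervals. The other type I and V chains were closer, with ratios of 1.46 for col1a2 (0.94 to 2.36) and 1.21 for COL5A2 (2 of 2) (0.67 to 2.35). Basement membrane and transmembrane chains gave 1.08 for col4a1, 1.58 for col4a2 and 0.91 for COL23A1 (1 of 2), with intervals that include 1.

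With a pseudocount of 10 CPM and at least 10 UMIs in the groups compared, 4 of 13 chains compared were at least 2-fold higher at day 7 in cluster 0 (col1a1a, col1a1b, col5a1 and col6a2) and none was 2-fold lower, where 12.4% of 3398 genes were higher and 10.5% lower. The median log2 ratio was 0.58 over the chains and -0.04 over all genes. The filter counts both days together, and cluster 0 had 690373 UMIs at day 7 against 195062 at day 0. Chains with few day 0 UMIs passed it through day 7 alone, so this count and median are partly set by the filter. For col6a2 the ratio was 2.61 (0.94 to 10.1), from 37 UMIs against 4. Fibroblast marker RNA moved with this comparison: it was 169 CPM in cluster 0 at day 0 and 775 at day 7, from 10 and 13 of the 17 measured markers, and its part in the result was not tested. Of the day 7 sum, 348 CPM were ccdc80, a gene lower in cluster 4 than in cluster 0 at day 7. Other marker sums of cluster 0 were lower at day 7 than at day 0: erythroid 13831 and 2684 CPM at day 0 and 7, cardiomyocyte 20158 and 12208, endothelial 2958 and 1588, and macrophage 349 and 62.3, and their part was not tested either. Cells with at least 2 fibroblast marker UMIs were 6.94% of the cluster at day 0 and 42.0% at day 7. Without them the summed chain ratio was 1.45. This limit does not mark fibroblast-like cells alone: 87.5% of mural-like cluster 1 at day 0 and 64.7% of endothelial-like cluster 6 at day 3 passed it. It was set on counts before thinning, and median depth in cluster 0 was 2323 UMIs per cell at day 0 and 2976 at day 7.

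**Figure D5:**
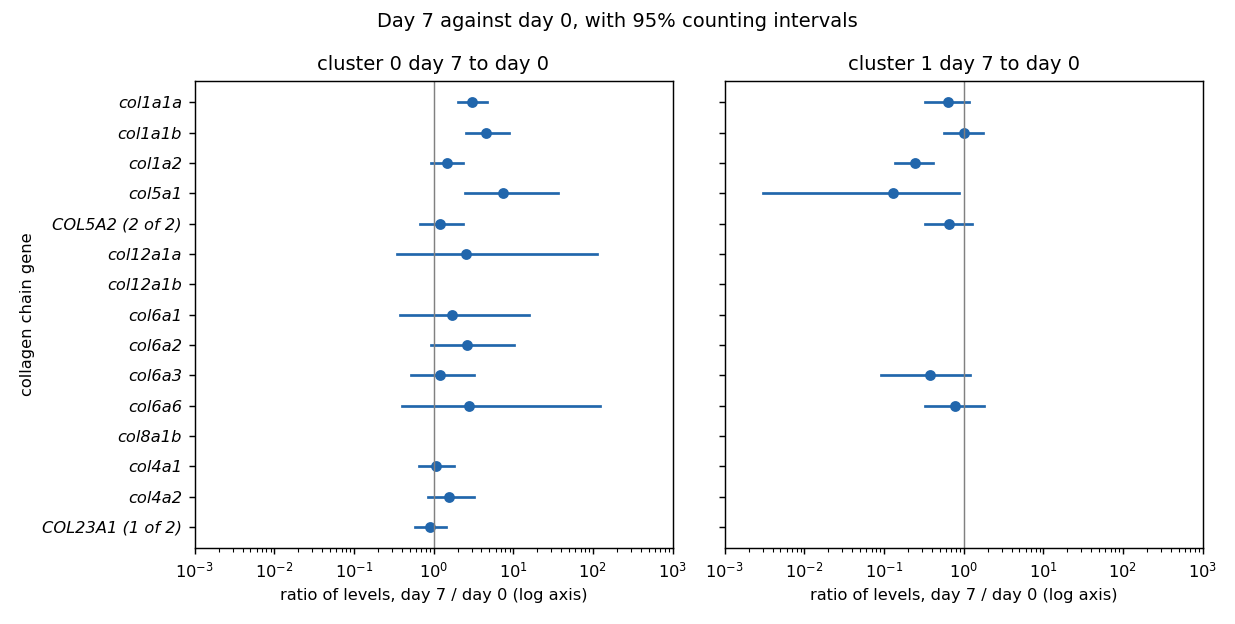
Ratio of day 7 to day 0 level for each chain with at least 10 UMIs in cluster 0 (left) and mural-like cluster 1 (right), on log axes with exact 95% counting intervals; the grey line marks a ratio of 1. In cluster 0 col5a1, col1a1b and col1a1a lie above 1, and in cluster 1 col1a2 and col5a1 lie below it. For col5a1 in cluster 1 this rests on 11 UMIs against 1, with 5 of the 11 in 1 cell.

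In mural-like cluster 1 the summed level was lower at day 7, and whether the clusters differ in this was not tested. Its summed chain level was 881 CPM at day 0 and 434 at day 7, a ratio of 0.493 (0.384 to 0.627). At day 0, 1 cell held 53 of the 265 chain UMIs, and the level without it was 710 CPM. The largest part was col1a2, 329 CPM at day 0 and 80.2 at day 7, 4.1-fold lower (2.44 to 7.33); without the 1 rich cell named above, the day 0 level was 154. Level of col1a1b was 113 CPM on both days, a ratio of 1.00 (0.57 to 1.74). There were 11 col5a1 UMIs at day 0 and 1 at day 7, a ratio of 0.129 (0.003 to 0.888). Of the 11, 5 lay in 1 cell, and 6 UMIs (20.2 CPM) were left without it. Of 7 chains compared, none was 2-fold higher and 3 were 2-fold lower (col1a2, col5a1 and col6a3), with 13.3% and 15.1% of 2443 genes as background. Single day 0 cells carry part of this count. Without its richest day 0 cell, col1a2 would not pass 2-fold with the pseudocount of 10 CPM, and col5a1 would fall below 10 UMIs. For col6a3 the ratio was 0.378 (0.091 to 1.19), from 4 UMIs against 15. Fibroblast markers stood at 2436 and 1999.9 CPM on these days, mural markers at 15801 and 20782 and epicardial markers at 2948 and 6080, and their part in the result was not tested.

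Cluster 5, cardiomyocyte-like, had 13 chain UMIs at day 0 and 44 at day 7, a ratio of 1.56 (0.82 to 3.15). Neither of its 2 chains compared passed 2-fold, where 23.1% of 938 genes were higher and 12.7% lower. No difference was detectable at this depth.

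Within day 3, cluster 3 was compared with endothelial-like cluster 6. The summed chains were 2.43-fold higher in cluster 3 (1.86 to 3.21), 1012 against 416 CPM, with 668 against 219 CPM for type I and 213 against 60.2 for type V. Of 7 chains compared, 6 were at least 2-fold higher in cluster 3, beside 22.5% of 2212 genes, and the exception was col4a1, 33.9 against 49.3 CPM. The filter counts both clusters together, so this count is partly set by it. Through cluster 3 alone passed col5a1 (24 UMIs against 7), COL5A2 (2 of 2) (20 against 4) and COL23A1 (1 of 2) (12 against 0). Below the filter, col4a2 (0 against 5), col6a3 (2 against 4) and col6a6 (1 against 3) were lower in cluster 3. Also below it, col6a2 (3 against 0) and col12a1a (2 against 1) were higher. Type IV as a whole was 33.9 CPM in cluster 3 and 76.6 in cluster 6, a ratio of 0.44 (0.15 to 1.17). Endothelial markers stood at 1147 CPM in cluster 3 and 8077 in cluster 6, epicardial markers at 4154 and 9752 and fibroblast markers at 150.1 and 547, and their part in the result was not tested.

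At day 0, the summed chains stood at 1029.7 CPM in endothelial-like cluster 2 and 805 in cluster 0, 1.28-fold higher in cluster 2 (1.05 to 1.56). Erythroid marker RNA was 63.7 CPM in cluster 2 and 13831 in cluster 0, and its part in the result was not tested. Of 11 chains compared, col5a1 and col6a1 were at least 2-fold higher in cluster 2 and col4a2 was 2-fold lower, beside 14.9% and 6.89% of 2496 genes. The clearest was col5a1, 74.3 against 15.4 CPM, 4.83-fold higher (1.44 to 25.3).

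At day 7, cluster 4 was compared with cluster 0 and with mural-like cluster 1, comparisons that share the cluster 4 cells. Summed chains were 11.3-fold higher than in cluster 0 (10.6 to 12.1) and 41.3-fold higher than in cluster 1 (33.6 to 51.4). Against cluster 0, 14 of 17 chains compared were at least 2-fold higher and 1 lower, where 21.1% of 3626 genes were higher and 19.3% lower; against cluster 1, 14 of 15 were higher and none lower, where 26.1% of 2287 genes were higher. The median log2 ratios were 2.91 and 4.95 over the chains and 0.08 and 0.12 over all genes. The filter of 10 UMIs counts both groups together. Chains with few UMIs in the other group passed it through cluster 4 alone, so a higher level was nearly fixed in advance. An example is col8a1b, with 116 UMIs in cluster 4 and 0 in clusters 0 and 1. This gene, col12a1a and col12a1b were also among the leading genes of cluster 4. These counts and medians of chains are thus partly set by the filter and by how the cluster was formed.

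Against cluster 0, the fibril chains were 17.0-fold higher for col1a1b (14.5 to 19.9), 21.0 for col1a2, 6.29 for col1a1a, 22.2 for col5a1 and 6.00 for COL5A2 (2 of 2). Without the richest cell of the gene in each cluster, the ratio was 12.6 for col5a1, 13.7 for col1a1b and 10.0 for col1a1a. Type XII was 59.0-fold higher for col12a1a (30.3 to 131) and 116-fold for col12a1b (30.8 to 973), or 204-fold for the latter without its richest cells, from 58 UMIs against 1 (35.2 to 8195). For col8a1b, with 0 UMIs in cluster 0, the level was at least 128-fold higher, set against 3 counts in cluster 0, and at least 35.7-fold higher without the cell that held 84 of its 116 UMIs. Type VI gave 13.3-fold for col6a2, 11.3 for col6a1 and 8.80 for col6a3. By contrast col4a1 was 1.49-fold higher (0.97 to 2.23), col6a6 1.32-fold (0.30 to 4.58), and COL23A1 (1 of 2) was 14.1-fold lower (3.79 to 118), from 2 UMIs against 93. The partner of col4a1, col4a2, was 3.94-fold higher (2.81 to 5.54), or 1.72-fold without its richest cells (1.09 to 2.67). Type IV as a whole was 2.60-fold higher (2.02 to 3.34).

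A few more comparisons were added after the values had been seen. Cluster 0 at day 3 had 1.62 times its day 0 level (1.26 to 2.07), and 75.4% of its 118 chain UMIs lay in 5 of 16 cells. Marker RNA of other cell types differed as well, with macrophage markers at 349 CPM at day 0 and 2273 at day 3, cardiomyocyte markers at 20158 and 1446, and erythroid markers at 13831 and 66.2, and their part in the result was not tested. Of 8 chains compared, 4 were at least 2-fold higher, beside 10.0% of genes, and 2 lower, beside 34.0%. In cluster 3 the summed level was 3.53-fold higher at day 7 than at day 3 (2.96 to 4.22), with 6 of 7 chains past 2-fold beside 14.5% of genes. That direction turned without cells holding at least 2 fibroblast marker UMIs, to a ratio of 0.631 over 10 and 53 cells. Such cells were 54.5% of the group at day 7 and 11.7% at day 3, and median depth was 4284 and 2880.5 UMIs per cell. At day 7 and 3, fibroblast markers stood at 897 and 150.1 CPM and endothelial markers at 3630 and 1147. Mural markers stood at 983 and 1496 CPM and epicardial markers at 2237 and 4154. The part of depth and of marker RNA in the result was not tested. At day 0 the summed levels of cluster 1 and cluster 0 had a ratio of 1.09 (0.895 to 1.34), with 2 of 10 chains higher, beside 22.5% of genes, and 3 lower (col4a1, col4a2 and COL23A1 (1 of 2)), beside 18.2%.

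Genes that process, bind or break down collagen were read from 6 lists in the same groups. The counts for cluster 4 against cluster 0 stand beside 21.1% of all genes higher and 19.3% lower. Cluster 4 was formed from these same values, and postnb and fn1b of the fibril partner list and lox were among its leading genes. The fibril partner list shares further genes with the fibroblast markers, and the breakdown list shares mmp2. Counts for these lists are thus partly set by how the cluster was formed and named. In cluster 4 against cluster 0 at day 7, 6 of 13 genes for folding and secretion were at least 2-fold higher: the folding helper serpinh1b was 387 against 99.95 CPM, crtap of the prolyl 3-hydroxylase complex 182 against 33.3, and the isomerase fkbp14 119.5 against 8.69. The highest gene of that list, ppib, was 2357 against 1236 CPM and just below 2-fold. Of 6 genes for propeptide cleavage and cross-linking, 4 were higher, among them the cross-linking enzyme lox, 238-fold higher (101 to 736), and pcolce2b, an enhancer of propeptide removal, 14.7-fold. Fibril partners were higher in 10 of 12, with sparc at 8098 against 440.3 CPM, the proteoglycan dcn 13.6-fold and fibronectin fn1a 35.9-fold higher, while ccdc80 was 2.27-fold lower. Basement membrane partners were higher in 3 of 7 (lama5, nid1a and hspg2) and lower in 1 (agrn). Breakdown genes were higher in 6 of 7, with the gelatinase mmp2 11.8-fold and the inhibitor timp2a 7.26-fold. The receptor gene itga1, the only receptor gene compared, was 33.3 CPM in cluster 0 and 4.78 in cluster 4.

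The same lists in cluster 0, day 7 against day 0, gave 6 of 7 fibril partners at least 2-fold higher (dcn, fn1b, sparc, postna, postnb and ccdc80), with dcn at 30.8 and 138 CPM, beside 12.4% of all genes higher and 10.5% lower. Genes with few day 0 UMIs could pass the filter through day 7 alone. That fibril partner list shares genes with the fibroblast markers, whose sum was 169 CPM at day 0 and 775 at day 7. The part of this marker RNA in the result was not tested. In the folding list 2 of 10 were higher and 1 lower: ppib was 518 and 1236 CPM, and serpinh1b, the collagen chaperone, 210.2 and 99.95, 2.1-fold lower. In cluster 1, beside 13.3% of all genes higher and 15.1% lower, the folding list had 2 of 8 genes higher and 2 lower, fibril partners 1 of 7 higher and 2 lower, breakdown genes 2 of 5 lower and none higher, and cross-linking genes none of 3 in either direction. Among those lower at day 7, serpinh1b was 229 CPM at day 0 and 99.1 at day 7, elnb, an elastin gene, 249 and 18.9, and mmp2 126 and 37.7. Among those higher, crtap was 39.9 and 99.1 CPM and dcn 13.3 and 56.6.

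Over the 12 groups, the genes whose log2 level followed the summed chains most closely, of 1685 compared, were hspg2 (perlecan, Pearson r = 0.92), f3b (0.92) and fstl1b (0.91). Next came eva1ba (0.90), sf3b5 (0.89) and dcn (0.89), then vmp1, trappc1, hnrnpr and mustn1a. Without cluster 4 the r over 11 groups was 0.78 for hspg2, 0.79 for f3b, 0.92 for fstl1b and 0.69 for dcn. These r values describe groups that share libraries and depth.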

How the data were processed

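RNA of single cells from 3 pooled libraries was sequenced, with Cell Ranger and the build GRCz10 per the submitters' processing notes. The authors deposited natural log (ln) values, ln(1 + 10000 × UMI / total), and, per the file headers, counts of UMIs per cell, day and cluster. Reversing these gave whole UMI counts: none of the 497895 nonzero values was further than 0.001 from an integer, and the totals matched in 754 of 754 cells. The deposited mitochondrial percent was 0 in every cell and was not used. No doublet caller was run, and all deposited cells had over 2000 UMIs. UMIs were summed per cluster and day (groups of at least 10 cells; 21 cells lay in smaller ones) and scaled to CPM. Intervals at 95% were exact Poisson, Clopper-Pearson or conditional for ratios, and a count of 0 was bounded at 3 counts. Comparisons used log2(CPM + 10), a 2-fold limit and at least 10 UMIs in the groups together, computed with Python 3.11.15, pandas 2.3.3 and scipy 1.17.1. A gene can thus pass the filter through the group where it is high alone. The calculation was run on group sums simulated with counting error only. No spread between cells was simulated, so that run cannot show how the comparisons behave where single cells hold many UMIs. Chains with at least 30 UMIs were named, and from the lists the genes with at least 30 UMIs that had the most UMIs or passed 2-fold. Names matched the current zebrafish name table for 19 and RefSeq for 40 of 60 rows. How reads that fit duplicate copies were counted was not examined, and it could affect the levels and shares of such copies. Members, lists and markers were chosen with earlier results of these data known. Alternatives varied the scaling, the cells kept, the pseudocount and the low-count filter.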

Additional observations from a re-analysis of the deposited data

Results flagged for a closer look

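The day 7 to day 0 ratio of col5a1 was 7.44 in cluster 0 and 0.129 in mural-like cluster 1 (0.003 to 0.888). Day 0 and day 7 UMIs were 3 and 79 in the former and 11 and 1 in the latter. In cluster 1 at day 0, 5 of the 11 UMIs lay in 1 cell. It was listed because the clusters moved in opposite directions, and the difference between them was not tested. The summed chains likewise gave ratios of 1.97 in cluster 0 and 0.493 in cluster 1, a difference that was not tested. In cluster 1 at day 0, 53 of the 265 chain UMIs lay in 1 cell. Cluster 2 at day 7 was left out of the comparisons because it held 9 cells, and its summed chain level of 3981 CPM (3438 to 4586) lay above the 1029.7 CPM of the same cluster at day 0. Its cells held 5 to 49 chain UMIs with a median of 14, and 5 of 9 had at least 2 fibroblast marker UMIs.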

How the results depend on the processing

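No paired analysis was possible because each day had 1 library. Of 10 ratios of summed chains, 8 kept their direction under the alternatives run. Cluster 1 to cluster 0 at day 0, 1.09 as reported, was 0.893 without the richest cell of each gene. The day 7 to day 3 ratio of cluster 3 was 2.44 without those cells, 2.76 without the 5% of cells with the most UMIs, and turned to 0.631 without cells carrying fibroblast markers; the cause was not tested. The day 7 to day 0 ratio of cluster 0 was 1.64 and 1.45 under the last pair of settings, and cluster 4 to cluster 0 was 13.0 and 15.3, or 12.4 as a mean over cells. Without the richest cell of each gene, which lowers sums by construction, levels were 757, 770.3 and 3321 CPM at day 0, 3 and 7; in cluster 0 678 and 1312 at day 0 and 7, in cluster 1 605 and 335, in cluster 2 838, in cluster 3 853 and 2077, in cluster 4 13908, in cluster 5 89.9 and 263, and in cluster 6 318. As a mean over cells, day 7 was 3687, cluster 0 at day 7 1421 and cluster 3 at day 7 2810.5. Without the 5% of cells with the most UMIs, these were 3834, 1332 and 2795, and cluster 4 was 17328. Without cells carrying fibroblast markers outside cluster 4, day 3 was 1082, day 7 6073, cluster 0 1569.5 and 1173 at day 3 and 7, and cluster 3 at day 7 666; cluster 1 at day 7 kept 7 cells and gave no value. With cardiomyocyte, mitochondrial and globin genes left out of the total, day 7 was 4181, and without cluster 4, an alternative chosen after seeing the data, 1531. At a pseudocount of 1 CPM, 685 genes were higher at day 7 in cluster 0 in place of 423. Without the low-count filter, the numbers past 2-fold higher and lower were 679 and 746 in cluster 1, 1212 and 1165 in cluster 5, 1149 and 1240 in cluster 3 against cluster 6, 1156 and 631 in cluster 2 against cluster 0, and 1302 and 873 in cluster 4 against cluster 1, with 696 lower in cluster 0 and 1282 higher in cluster 4 against cluster 0. Of 72 ratios of named chains, 9 moved beyond their intervals and none turned direction among those whose interval excluded 1 when the richest cell of the chain was left out of each group, an alternative chosen after seeing the data. Single cells limit several chains, since 41 levels of named chains moved beyond their intervals when the richest cell of the gene was left out.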
